A study of Mus musculus with 6 samples.

Results

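The genes described here encode the receptors for fast and modulatory signalling by glutamate, GABA, glycine and, through its nicotinic receptors, acetylcholine. The rule that chose them matches gene symbols and uses no measured value, although it was drawn up with earlier results of these data known. Of the 16415 genes in the table, 49 carry a symbol of these families. The 49 comprise 4 AMPA, 5 kainate, 5 NMDA and 2 delta subunit genes, 7 metabotropic glutamate receptor genes, 12 GABA-A subunit genes, 2 GABA-B genes, 1 glycine receptor gene and 11 nicotinic subunit genes. Family members that are not rows of the table, such as Grin2a and Grin2b, were not analysed here. Messenger RNA came from mouse trigeminal ganglion, the sensory ganglion of the head, which holds the cell bodies of touch and pain neurons together with satellite glia and Schwann cells. The libraries form 2 groups of 3, SETDB2-up and NC-up, and all 6 are labelled wild type. The labels do not say how either treatment was given, which cells it reached, the age, sex or strain of the mice, or whether each library is a separate animal, so each p-value reflects only how far these libraries scatter, which may be technical. The study's title places the work in sensory neurons and migraine, and the comparison here asked which receptor genes differed between SETDB2-up and NC-up ganglia.

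Ionotropic receptors are channels built from several subunits, so that the subunit mix sets their speed, ion selectivity and drug response. GABA-A and glycine receptors pass chloride, AMPA, kainate, NMDA and nicotinic receptors pass cations, and metabotropic glutamate and GABA-B receptors act through G proteins. Primary sensory neurons carry many of these receptors both on their cell bodies and on their central terminals, where GABA and glutamate change how much transmitter is released. In these neurons the importer Slc12a2 keeps internal chloride high, and GABA then depolarises rather than hyperpolarises the membrane.

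Recovered reads per library ranged from 20355707 to 23501386 in SETDB2-up and from 19334997 to 23395693 in NC-up. Setdb2 itself had 113, 97.6 and 104 in SETDB2-up and 69.9, 58.4 and 71.5 in NC-up (log2 fold change 0.65 ± 0.19 SE, limma adjusted p = 0.0253), or 0.48 after GC correction (adjusted p = 0.159). Markers of the ganglion's own cells were present: all 10 sensory neuron markers were measured, with sums of 204206 to 209369 in SETDB2-up and 208568 to 217168 in NC-up, of which 1 rose and 1 fell. Of 14 brain markers 10 were measured and 2 fell, with sums of 10744 to 12984 in SETDB2-up and 12300.7 to 13334 in NC-up. Most of each sum was Slc17a7 and Gfap, which ganglia also express and which did not pass. The 2 that fell were Zic1 (log2 fold change -0.69, limma adjusted p = 0.0211) and Zic2 (-0.61, limma adjusted p = 0.0138). After GC correction Zic1 passed (-0.80, limma adjusted p = 0.0228) and Zic2 did not (-0.39, limma adjusted p = 0.196). Among Schwann cell markers 2 of 6 fell, among satellite glia 1 of 6, fibroblasts 2 of 5, endothelium 1 of 4 and macrophages 0 of 5 (limma and edgeR; 0 at an unadjusted p under 0.05 in limma). Over all genes, 8.71% fell in limma. Summed levels were 267509 to 302445 in SETDB2-up against 299453 to 312725 in NC-up for Schwann cells, and 33077 to 38833 in SETDB2-up against 35344 to 37467 in NC-up for satellite glia. Fibroblast markers summed to 18764 to 21674 in SETDB2-up and 21305 to 25124.5 in NC-up. For endothelium the sums were 2240 to 2336 in SETDB2-up and 2375 to 2516 in NC-up, without overlap. Macrophage sums were 1434 to 1700 in SETDB2-up and 1543 to 2032 in NC-up. The part of these cell types in the receptor results was not tested. Liver transcripts differed by library, with sums of 2704, 6391 and 83.9 in SETDB2-up libraries 1 to 3 and 33.5 to 45.6 in NC-up; all 8 liver markers tested rose (limma; 4 in edgeR), and Alb was 0 in every NC-up library.

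Across the 49 genes, 8 rose and 2 fell in SETDB2-up ganglia. The genes that rose included the GABA-A subunits Gabra2, Gabrb2 and Gabrg1, the glycine receptor subunit Glrb, the AMPA subunit Gria4 and the nicotinic subunit Chrna6. The genes that fell were the kainate subunit Grik5 and the NMDA subunit Grin2d. All 10 changes were modest, between 0.717-fold and 1.41-fold. Every log2 fold change or difference below is SETDB2-up over NC-up. The test was limma on log2(value + 1), where a value is the authors' normalised read count, and a gene counts as changed at an adjusted p under 0.05 over the 16387 genes tested; all 49 receptor genes passed the filter on low values. Of all tested genes, 7.71% rose and 8.71% fell (16.4% in either direction), against 16.3% and 4.08% of the receptor genes. The median log2 fold change was 0.08 over the receptor genes and 0.00 over all genes. In SETDB2-up library 3, which held few liver transcripts, all 8 genes that rose lay above every NC-up library. They were called with that library included, so this is not a separate check on the liver-rich libraries. Without libraries 1 and 2, which leaves a single SETDB2-up library whose spread is taken from NC-up, 3 receptor genes rose, Glrb and Chrna6 among them, and no receptor gene fell, with 1 lower at an unadjusted p under 0.05 (limma); in that fit 1.13% of all genes rose and 2.17% fell (3.3% in either direction).

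None of these 10 calls was kept once fold changes were corrected for the base composition of the transcripts, while that correction with the replicate number as a block kept Gabrb2 (adjusted p = 0.0262) and Chrna6 (adjusted p = 0.00796) in limma. Across the whole table, genes with little G and C were higher in SETDB2-up and genes rich in G and C were lower, and the receptor genes followed that trend. Tested genes were split into 4 equal bins by GC content. In the lowest bin (31.0% to 45.6%), 22.2% of 3878 genes rose and 1.55% fell; 17 receptor genes lie there, of which 7 rose. In the highest bin (55.1% to 82.2%), 0.309% of genes rose and 23.1% fell; 11 receptor genes lie there, of which 2 fell. Chrna6, at 47.6% GC, was the only called receptor gene outside those 2 bins. After a smooth trend on GC content was removed from each library, 0 of 49 receptor genes passed in either direction (limma), with 5 higher and 0 lower at an unadjusted p under 0.05, against 1405 higher and 1616 lower of all 15513 genes in that fit. The 5 of 49 that were higher are a share near that of all genes, while the 0 of 49 that were lower are a smaller share. In that fit 1.79% of all genes rose and 3.56% fell (5.35% in either direction). EdgeR on the recovered reads, without a GC correction, gave the same 8 rises and 2 falls, against 7.4% and 9.08% of all genes (16.5% in either direction). For each called receptor gene the GC-corrected value is therefore given beside the uncorrected one.

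**Figure D1:**
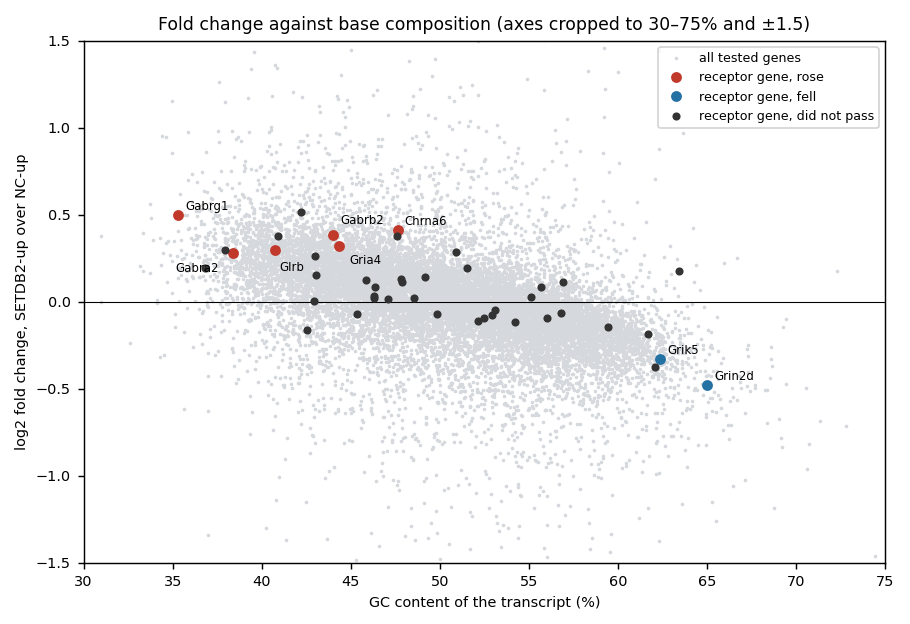
log2 fold change of each gene (SETDB2-up over NC-up, vertical axis) against the GC content of its longest coding transcript in percent (horizontal axis); grey points are all tested genes, red and blue points are receptor genes that rose or fell, and black points are receptor genes that did not pass (44 of the 49 are marked). The red points lie between 35.3% and 47.6% GC and the blue ones at 62.3% and 65.0%, along the slope of the grey cloud.

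The levels of the receptor genes spanned 3 orders of magnitude. Levels are compared between genes as normalised reads per kilobase of the longest annotated coding transcript, a scale that depends on the transcript chosen. Gabbr1, the ligand-binding subunit of the GABA-B receptor, was the highest of the 49, at 1830.4 ± 80.9 in SETDB2-up and 1933 ± 53.9 in NC-up (reads per kilobase, SD, n = 3 each). Grin1, the subunit that every NMDA receptor needs, came next in NC-up at 1425 ± 59.1, with 1287 ± 26.0 in SETDB2-up. Glrb averaged 1207 ± 60.3 in SETDB2-up and 979.9 ± 26.1 in NC-up, close to Gabbr2, the signalling subunit of the GABA-B receptor, at 1042 ± 64.7 in SETDB2-up and 1112 ± 73.5 in NC-up. Grik1, the kainate subunit typical of small sensory neurons, averaged 743 ± 6.62 in SETDB2-up and 688 ± 3.92 in NC-up. At the other end, Gabrg3 averaged 1.51 ± 0.323 in SETDB2-up and 1.72 ± 1.13 in NC-up, so that its libraries overlapped widely. Its lowest library held 7 recovered reads.

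**Figure D2:**
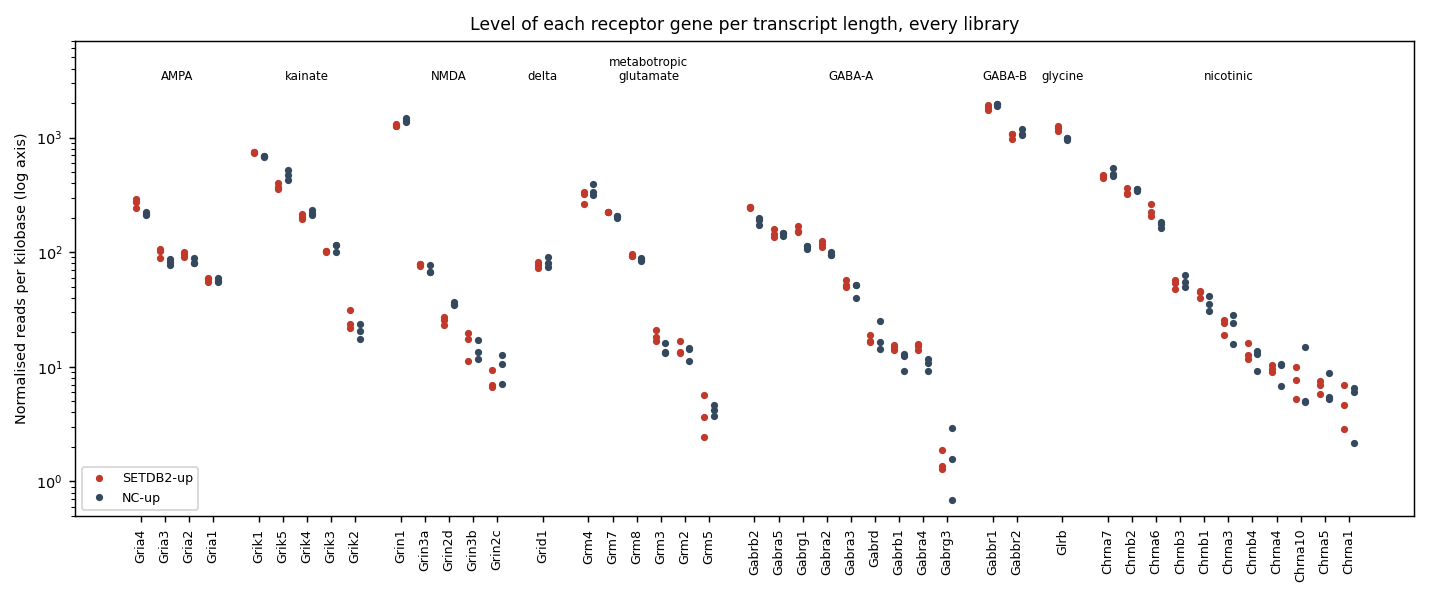
Level of 44 of the 49 receptor genes in every library, in normalised reads per kilobase on a log axis, with SETDB2-up libraries in red to the left of NC-up libraries in blue and genes ordered by level within each family. Gabbr1, Grin1, Glrb and Gabbr2 stand near or above 1000 and Gabrg3 is the lowest of those plotted.

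GABA-A receptors are assembled mostly from alpha, beta and gamma subunits. Of their 12 genes, 5 rose and none fell (limma and edgeR alike), against 7.71% and 8.71% of all genes. At an unadjusted p under 0.05, 8 were higher and 0 lower, against 2439 and 2573 of the 16387 genes tested. The median log2 fold change was 0.31 against 0.00 over all genes. After the GC correction the median was 0.09. The summed level of the 12 genes was 2156, 2061 and 1994 reads per kilobase in SETDB2-up libraries 1 to 3, against 1667, 1676 and 1729 in NC-up libraries 1 to 3, with no overlap between the groups. In a ganglion sampled as a whole, more cells of one type and more RNA per cell cannot be told apart.

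Gabrg1, which encodes the gamma-1 subunit (gene 14405, chromosome 5, 70751047 to 70842617, GRCm38), had the largest rise of the called receptor genes. It counted 809, 728 and 718 in SETDB2-up, against 542, 542 and 510.4 in NC-up. Every SETDB2-up library lay above every NC-up library, and library 1 was the highest. The log2 difference came to 0.50 ± 0.08 (SE; limma, adjusted p = 0.000615), or 0.21 after GC correction (adjusted p = 0.144).

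Gabrb2, the beta-2 subunit (gene 14401, chromosome 11, 42419515 to 42632591), had 984, 981 and 961 in SETDB2-up and 685, 797 and 766 in NC-up, without overlap. Its log2 difference came to 0.38 ± 0.08 (SE; limma, adjusted p = 0.00278), or 0.24 after GC correction (adjusted p = 0.0726). Gabra2, the alpha-2 subunit (gene 14395, chromosome 5, 70958392 to 71095849), had 734, 685 and 645 in SETDB2-up and 557, 585 and 559 in NC-up. The groups were apart, but the call was less secure, at 0.28 ± 0.08 (SE; limma, adjusted p = 0.0294) and 0.03 after GC correction (adjusted p = 0.850). It was lost when SETDB2-up library 1 (log2 fold change 0.23) or 2 (0.28) or NC-up library 1 (0.26), 2 (0.30) or 3 (0.27) was left out.

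GABA-A genes lie in clusters. On chromosome 5, Gabrg1, Gabra2, Gabra4 and Gabrb1 share 1398526 bp; the first pair rose and the others did not pass. Gabra4, the alpha-4 subunit, had 65.5, 62.0 and 58.0 in SETDB2-up and 47.7, 44.1 and 37.5 in NC-up, and its log2 difference of 0.52 ± 0.24 exceeded that of every called receptor gene (SE; limma, adjusted p = 0.147). Gabrb1, the beta-1 subunit, had 203, 194 and 215 in SETDB2-up and 172, 179 and 126 in NC-up (log2 fold change 0.38 ± 0.15 SE, limma adjusted p = 0.0959). Both had groups without overlap, and GC-corrected values of 0.34 and 0.17. The annotated starts of these 2 genes overlap head to head on opposite strands over 388 bp, so reads there can be assigned to either gene if strand was not used in counting. Gabra5, the alpha-5 subunit, differed by 0.02 with a 95% interval of -0.19 to 0.22, and Gabrg3 by 0.00 with one of -1.05 to 1.06. Reads of Gabra5 are uncertain where it overlaps a more abundant gene on the opposite strand. Gabra3 on the X chromosome (0.15 ± 0.14 SE) and Gabrd, the delta subunit of extrasynaptic receptors (-0.06 ± 0.30 SE), did not pass; Cfap74 overlaps Gabrd on the opposite strand with 2.29 times its reads.

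Shares of reads per kilobase, here and below, use values without GC correction. On that scale the subunit mix shifted by a few percentage points. Among alpha subunits, Gabra5 made up 14.9% ± 0.635 of the summed reads per kilobase in SETDB2-up and 17.8% ± 0.793 in NC-up (SD, n = 3 each). Within the beta group the share of Gabrb2 was 43.2% ± 1.86 in SETDB2-up and 39.8% ± 0.728 in NC-up. Of the gamma subunits, Gabrg1 held 31.7%, 30.2% and 31.4% in SETDB2-up and 29.1%, 29.9% and 27.0% in NC-up. These 3 shares did not overlap between the groups, and no test was run on them.

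**Figure D3:**
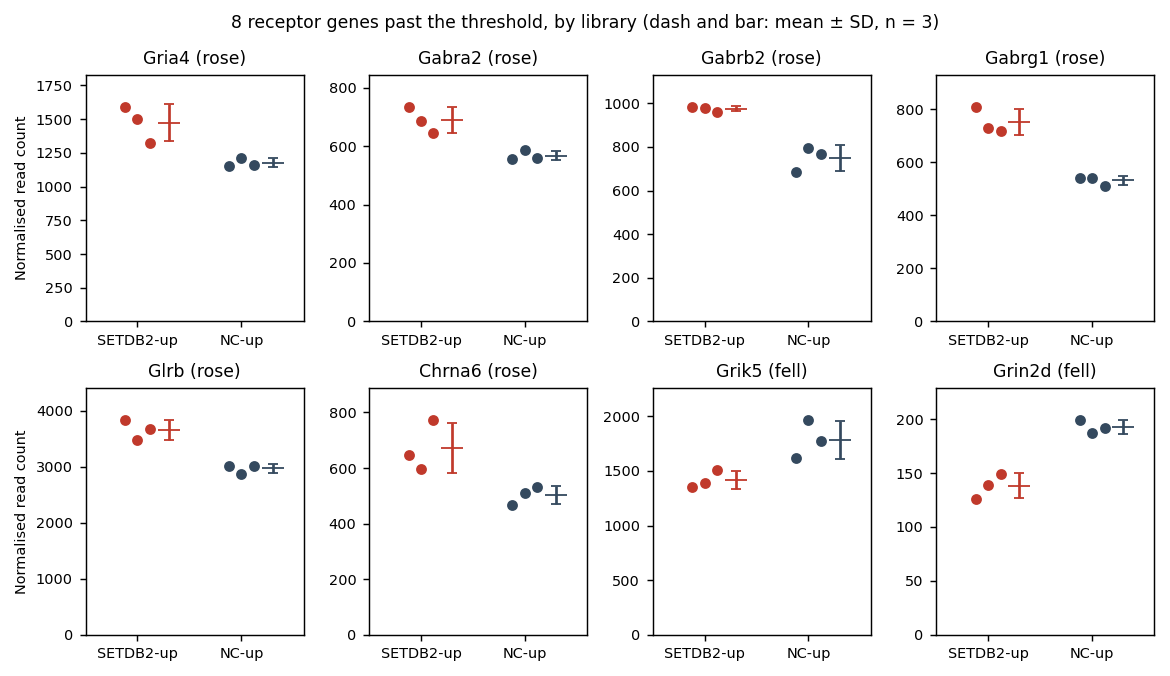
Normalised read count (vertical axes, from 0) of 8 of the 10 receptor genes that passed the threshold, with 1 point per library, SETDB2-up on the left and NC-up on the right of each panel, and the mean ± SD beside the points (n = 3). In each of the 8 panels the 2 groups are apart, with SETDB2-up above NC-up in 6 and below it in Grik5 and Grin2d.

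Promoter sequences are given for called genes of both directions. RefSeq windows of 300 bases on GRCm38.p6 (250 before to 50 after a start) were found for 34 of the 49 genes. They are shown for the neighbouring pair on chromosome 5 and for Gabrb2, which rose, and for Grik5 and Grin2d, which fell. All run 5′ to 3′ on the gene's strand, and capitals mark CACCC or its complement GGGTG, the core of sites bound by Kruppel-like factors, the family of Klf4 in the study's title.
Gabrg1 (chr5:70842568-70842867, minus strand): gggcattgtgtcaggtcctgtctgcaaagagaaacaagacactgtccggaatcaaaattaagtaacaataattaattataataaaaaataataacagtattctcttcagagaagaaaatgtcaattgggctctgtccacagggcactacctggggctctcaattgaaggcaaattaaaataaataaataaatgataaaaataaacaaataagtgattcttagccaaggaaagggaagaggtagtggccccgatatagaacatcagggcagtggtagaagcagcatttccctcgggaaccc
Gabra2 (chr5:71095800-71096099, minus strand): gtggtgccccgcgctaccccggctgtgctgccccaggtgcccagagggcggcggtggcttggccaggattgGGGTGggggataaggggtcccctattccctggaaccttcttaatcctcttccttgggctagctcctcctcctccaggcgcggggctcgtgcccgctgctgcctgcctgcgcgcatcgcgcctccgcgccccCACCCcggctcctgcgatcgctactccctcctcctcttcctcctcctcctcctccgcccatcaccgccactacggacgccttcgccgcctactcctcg
Gabrb2 (chr11:42420190-42420489, plus strand, the first of 3 windows): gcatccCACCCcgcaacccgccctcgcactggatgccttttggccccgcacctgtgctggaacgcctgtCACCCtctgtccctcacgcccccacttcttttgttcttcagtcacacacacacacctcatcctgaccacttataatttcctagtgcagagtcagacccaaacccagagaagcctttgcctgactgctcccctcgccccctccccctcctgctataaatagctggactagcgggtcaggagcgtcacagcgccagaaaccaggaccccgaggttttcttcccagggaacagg
Grik5 (chr7:25072320-25072619, minus strand): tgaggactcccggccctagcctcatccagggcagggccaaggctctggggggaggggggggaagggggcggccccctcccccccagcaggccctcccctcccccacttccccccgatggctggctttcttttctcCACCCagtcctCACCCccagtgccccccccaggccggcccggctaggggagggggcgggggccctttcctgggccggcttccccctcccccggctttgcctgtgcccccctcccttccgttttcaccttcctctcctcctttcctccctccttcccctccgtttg
Grin2d (chr7:45866632-45866931, minus strand): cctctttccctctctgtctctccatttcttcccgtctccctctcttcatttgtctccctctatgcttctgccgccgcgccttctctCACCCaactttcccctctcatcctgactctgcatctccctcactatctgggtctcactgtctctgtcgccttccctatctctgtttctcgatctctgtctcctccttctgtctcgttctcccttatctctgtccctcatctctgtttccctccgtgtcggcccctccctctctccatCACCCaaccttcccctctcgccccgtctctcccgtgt
The core was found on either strand in 2 of the 5 genes that rose and had a window, in both that fell, and in 57.5% of all 32851 windows. Gabrg1 has no core and the lowest GC content of the windows shown (38.3%, with 3 CpG), while its neighbour Gabra2 has 70.0% GC and 25 CpG. Grik5 and Grin2d have 72.0% and 56.0% GC with 10 and 12 CpG, against medians of 52.7% and 7 over all windows. Over the first windows of the 34 receptor genes the medians were 63.3% and 17, so both genes were below that CpG median. The windows of Gabrg1 and Gabra2 lie at the outer start of the gene span given for them. Those of Gabrb2, Grik5 and Grin2d lie inside the span, so the windows are not alike in position. High GC in the transcript and in the promoter window thus did not go together in Gabra2. Klf4 itself was lower in SETDB2-up (-0.71 ± 0.16 log2 units, SE, limma adjusted p = 0.00612; GC-corrected -0.62, adjusted p = 0.0363). A match is a string of letters, not a bound site.

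The glycine receptor was represented by Glrb alone, whose beta subunit ties the receptor to the scaffold gephyrin and needs an alpha subunit to form a glycine-gated channel (gene 14658, chromosome 3, 80843598 to 80913660). It had 3833, 3468 and 3666 in SETDB2-up, against 3009.7, 2877 and 3018 in NC-up. The groups did not overlap, and the log2 difference came to 0.30 ± 0.06 (SE; limma, adjusted p = 0.00204), or 0.10 after GC correction (adjusted p = 0.354). For the GABA-B pair no change passed. Gabbr1 had 9173, 9623 and 10022 in SETDB2-up and 9819, 10327 and 10290.2 in NC-up, and its log2 fold change was -0.08 with a 95% interval of -0.19 to 0.03. Gabbr2 differed by -0.09 (-0.22 to 0.04). Neither gene was past an unadjusted p of 0.05 (limma, edgeR and DESeq2).

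AMPA receptors carry most fast excitation. Of their 4 genes, Gria4 alone passed the main test, against 7.71% of all genes that rose. The fold changes of all 4 were above 0 before GC correction. Gria4, the GluA4 subunit of fast-gating receptors (gene 14802, chromosome 9, 4417893 to 4796234), had 1592, 1501 and 1324 in SETDB2-up and 1156, 1215 and 1164 in NC-up. No SETDB2-up library fell within the NC-up range, although library 3 came near it. The log2 difference came to 0.32 ± 0.07 (SE; limma, adjusted p = 0.00684), or 0.18 after GC correction (adjusted p = 0.130). The call was lost without SETDB2-up library 1 (0.26, adjusted p = 0.0684), and without libraries 1 and 2 the value was 0.17. Gria2, whose GluA2 subunit makes AMPA receptors impermeable to calcium, had a log2 difference of 0.19 ± 0.08 (SE; limma, adjusted p = 0.0932) that turned to -0.07 after GC correction. Gria3 stood at 0.26 ± 0.10 (SE; limma, adjusted p = 0.0802) and Gria1 at 0.02, with an interval of -0.20 to 0.24. Without SETDB2-up library 3, Gria2 and Gria3 also passed as higher (limma, adjusted p = 0.0469 and 0.0211). That fit rests on the liver-rich SETDB2-up libraries 1 and 2. Gria4 made up 51.7% ± 1.28 of the summed AMPA reads per kilobase in SETDB2-up and 49.3% ± 1.31 in NC-up (SD, n = 3 each).

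Kainate receptors of sensory neurons are built around GluK1, the product of Grik1. Of the 5 kainate genes, 1 fell and none rose (limma and edgeR), with 0 higher at an unadjusted p under 0.05. Over all genes, 8.71% fell and 7.71% rose in limma. Grik5, which encodes the high-affinity subunit GluK5 that works only with a partner such as GluK1 (gene 14809, chromosome 7, 25009849 to 25075694), had 1349, 1388 and 1504 in SETDB2-up, against 1616, 1965 and 1769 in NC-up. Each SETDB2-up value lay below each NC-up value. The log2 difference came to -0.33 ± 0.08 (SE; limma, adjusted p = 0.00561), or -0.04 after GC correction (adjusted p = 0.775). Zfp574 overlaps Grik5 on the opposite strand with 35.8% of its reads. Grik1 itself had 2739, 2716 and 2690.4 in SETDB2-up and 2521, 2499 and 2525 in NC-up; the groups were narrow and apart, and the difference of 0.11 ± 0.06 did not pass (SE; limma, adjusted p = 0.197). Per kilobase, Grik1 held 51.2% ± 0.609 of the kainate total in SETDB2-up and 45.5% ± 1.87 in NC-up. Grik5 held 25.9% ± 1.41 in SETDB2-up and 31.2% ± 1.94 in NC-up. These shares were neither tested nor corrected for GC content. After that correction the log2 differences of Grik1 and Grik5 were 0.04 and -0.04. Grik2 (0.30 ± 0.15 SE), Grik3 (-0.12 ± 0.08 SE) and Grik4 (-0.11 ± 0.07 SE) did not pass.

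In the NMDA family, 1 of 5 genes fell and none rose (limma), with 0 higher and 2 lower at an unadjusted p under 0.05. Over all genes, 8.71% fell and 7.71% rose. Grin2d, a glutamate-binding subunit of slowly closing receptors (gene 14814, chromosome 7, 45831883 to 45871194), had 126, 139 and 149 in SETDB2-up and 199, 187 and 192 in NC-up. The groups were well apart, with a log2 difference of -0.48 ± 0.14 (SE; limma, adjusted p = 0.0251), or -0.11 after GC correction (adjusted p = 0.722). The call was lost when SETDB2-up library 1 (log2 fold change -0.42) or 2 (-0.49) or NC-up library 1 (-0.46), 2 (-0.50) or 3 (-0.48) was left out. Grin1 had 5439, 5444 and 5633 in SETDB2-up and 5818, 6315 and 6146 in NC-up, without overlap. Its log2 fold change of -0.15 ± 0.05 missed the threshold in limma (SE; adjusted p = 0.0756) and passed in DESeq2 (adjusted p = 0.0362), without SETDB2-up library 3 (adjusted p = 0.0394) and with the replicate number as a block (adjusted p = 0.0245), a fit in which 10.3% of all genes rose and 11.7% fell (22.1% in either direction). It changed sign after GC correction (0.06). Grin1os lies on the opposite strand with 23.0% of the reads of Grin1. Grin3a, a subunit that lowers calcium entry, differed by 0.14 ± 0.09 (SE) and the sparse Grin2c by -0.38 ± 0.29 (SE), and neither passed. Grin3b (0.17 ± 0.27 SE, not passed) overlaps Tmem259, which has 54.1 times its reads on the opposite strand, so its value is uncertain. Of the delta receptors, relatives of the ionotropic family that organise synapses, Grid1 had 419.9, 438 and 469 in SETDB2-up and 516, 421 and 460.3 in NC-up (log2 fold change -0.07, 95% interval -0.28 to 0.14).

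No metabotropic glutamate receptor gene passed without a replicate block: 0 of 7 in limma at an adjusted or an unadjusted p under 0.05, and in edgeR 0 passed and 1 was lower at an unadjusted p under 0.05. Grm4, Grm7 and Grm8, which belong to the inhibitory group found on nerve terminals, were the abundant ones. Grm4 had 1224, 1542 and 1480.4 in SETDB2-up and 1445, 1816 and 1559.8 in NC-up, with overlap, at -0.18 ± 0.09 (SE; limma, adjusted p = 0.173) and 0.09 after GC correction. With the replicate number as a block, Grm4 passed as lower (adjusted p = 0.0361). Grm7 had 939, 939 and 943 in SETDB2-up and 842, 866 and 866 in NC-up, apart but at a log2 difference of 0.13 ± 0.07 (SE; limma, adjusted p = 0.223). Grm3, an inhibitory receptor also made by glia, had 51.3, 55.9 and 63.4 in SETDB2-up and 41.3, 48.8 and 40.2 in NC-up (0.38 ± 0.24 SE, limma adjusted p = 0.310). The excitatory Grm5 was near the lower limit of the table, with an interval of -0.86 to 0.54 around its log2 fold change that allows sizeable differences in either direction. Grm5 had 45.6, 29.5 and 19.6 in SETDB2-up and 33.9, 29.7 and 37.5 in NC-up, so that its groups overlapped. Grm2 and Grm8 differed by 0.11 and 0.12.

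Among the 11 nicotinic genes, Chrna6 alone passed (limma, edgeR and DESeq2 alike). That is 9.09% of the family rising in limma, close to the 7.71% of all genes. Its alpha-6 subunit forms receptors with beta-2 and beta-3 partners (gene 11440, chromosome 8, 27403212 to 27413944). It had 647, 598 and 773 in SETDB2-up, against 468, 509 and 532 in NC-up. All SETDB2-up values were above the NC-up values, library 3 by the most. The log2 difference came to 0.41 ± 0.10 (SE; limma, adjusted p = 0.00808). It lost its call under the GC correction alone among 15 alternatives, and narrowly (0.34, adjusted p = 0.0507). Chrnb3, which encodes the beta-3 partner and shares a span of 45234 bp with Chrna6, had 221, 261 and 248 in SETDB2-up and 290.3, 251 and 229.7 in NC-up, with overlap and a log2 fold change of -0.07 (95% interval -0.34 to 0.19). Chrnb2, the beta-2 partner, differed by -0.05 (-0.18 to 0.08); it overlaps Adar, which has 0.921 times its reads on the opposite strand.

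Chrna7, the subunit of calcium-permeable homomeric receptors, was the highest nicotinic gene per kilobase, at 460.2 ± 18.5 in SETDB2-up and 493 ± 40.7 in NC-up (SD, n = 3 each). Its counts of 965, 914 and 989.6 in SETDB2-up overlapped the 996, 1119 and 956 of NC-up, and the interval of its log2 fold change was -0.26 to 0.07. Chrna6 made up 19.4% ± 1.48 of the nicotinic reads per kilobase in SETDB2-up and 14.8% ± 1.10 in NC-up. The ganglionic subunits Chrna3, Chrna5 and Chrnb4, neighbours on chromosome 9, did not pass, with log2 fold changes of 0.03, 0.08 and 0.19; Chrna5 overlaps the more abundant Chrna3 on the opposite strand over 1304 bp. Chrna1 and Chrnb1, subunits of the muscle receptor, did not pass either (0.02 ± 0.46 and 0.29 ± 0.19 SE). Markers of skeletal muscle summed to between 78.8 and 155 in SETDB2-up and between 137 and 313 in NC-up. In limma 3 of 7 measured muscle markers fell, against 8.71% of all genes. Chrna4 and Chrna10, with means under 50 in both groups, completed the family at 0.08 and 0.03.

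**Figure D4:**
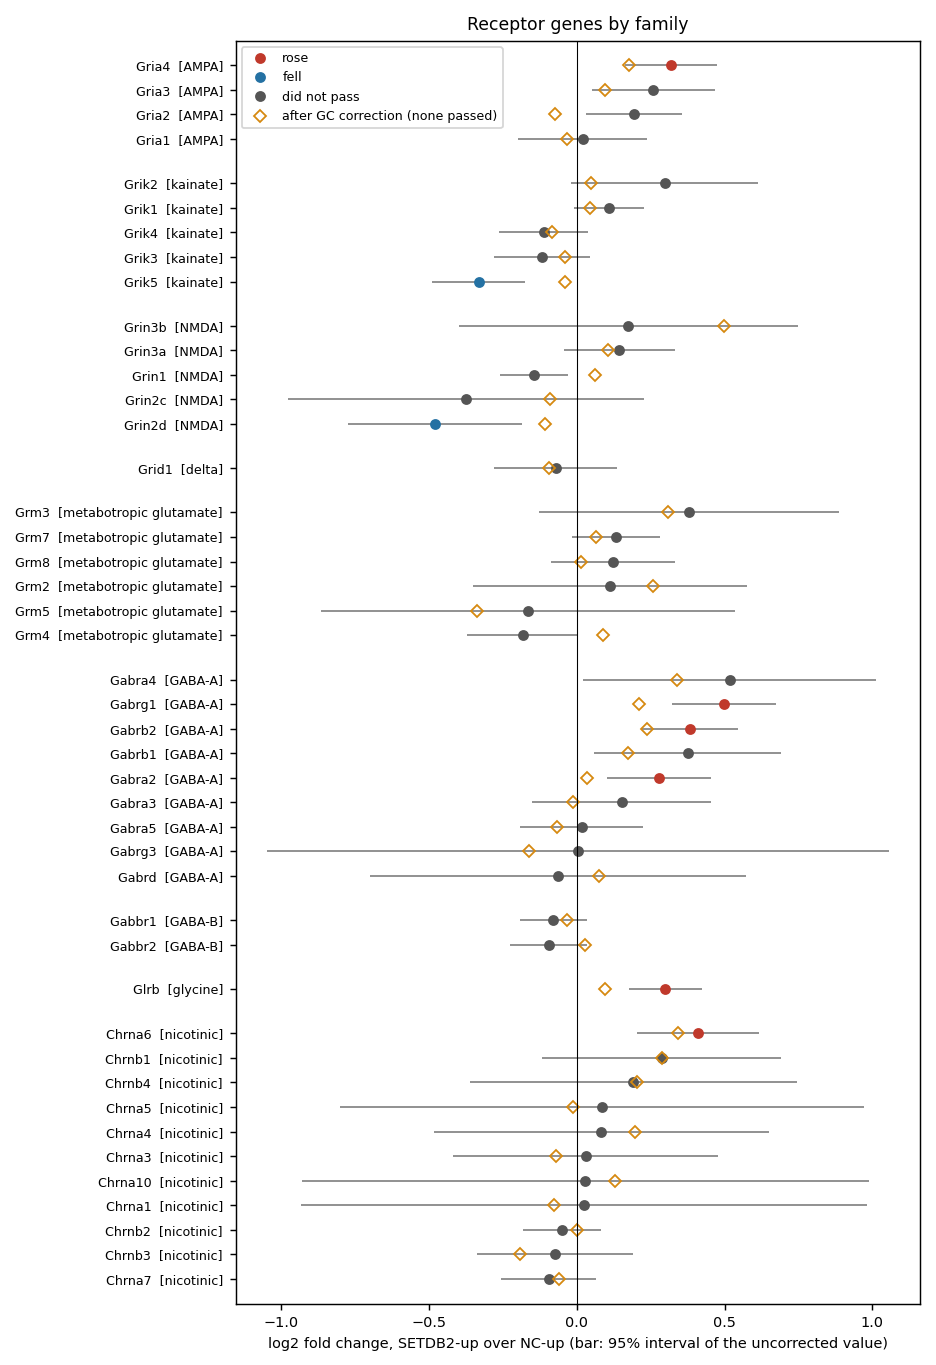
log2 fold change (SETDB2-up over NC-up) of 44 of the 49 receptor genes by family, with 95% intervals; red and blue circles rose or fell, grey circles did not pass, and open diamonds give the GC-corrected value. In the GABA-A family 8 of the 9 circles plotted lie above 0, and the diamonds of the 8 called genes plotted all lie nearer to 0 than their circles.

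In all, the groups did not overlap for 16 of the 49 receptor genes with SETDB2-up above and for 3 of the 49 with SETDB2-up below. Among all tested genes the groups were apart for 16.8% above and 16.4% below (33.3% in either direction). The receptor share was thus larger above and smaller below, in values without GC correction.

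Genes that work with these receptors were taken from a list of 91, of which 86 are in the table. Of the 86, 7 rose and 12 fell, or 22.1% against 16.4% of all genes; after GC correction 1 rose and 6 fell. The auxiliary subunits of GABA-B receptors bind the receptor and set how fast its signal fades. All 4 measured members changed, 2 in each direction (median log2 fold change 0.07), and 3 of the 4 passed after GC correction; Gabbr1 and Gabbr2 did not pass. Kctd12 had 589, 567 and 595 in SETDB2-up, against 863, 812 and 851 in NC-up, a log2 difference of -0.53 ± 0.08 (SE; limma, adjusted p = 0.000210). Its groups were far apart, and its GC-corrected value was larger, at -0.65 (adjusted p = 4.95e-05). Kctd16 had 2290.4, 2369 and 2063 in SETDB2-up, against 1604, 1797 and 1708 in NC-up (0.39 ± 0.07 SE, limma adjusted p = 0.000786), and passed after GC correction too (0.32, adjusted p = 0.00602). Kctd8 fell by 0.26 on the log2 scale (limma adjusted p = 0.0181; after GC correction -0.29, adjusted p = 0.0140). The sparse Kctd12b rose by 0.92 (limma adjusted p = 0.0318), and did not pass after GC correction (0.69, adjusted p = 0.185).

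Slc6a13, a transporter of GABA and taurine that is typical of the meninges, had 239, 226 and 195 in SETDB2-up and 387, 340.0 and 366 in NC-up. It fell by 0.73 ± 0.12 (log2, SE; limma, adjusted p = 0.000427), and by 0.64 after GC correction (adjusted p = 0.00416). Cacng2, or stargazin, which carries AMPA receptors to the membrane, had 424, 521 and 534 in SETDB2-up and 635, 711 and 699.9 in NC-up. Its log2 difference came to -0.47 ± 0.10 (SE; limma, adjusted p = 0.00297) before and -0.47 after GC correction (adjusted p = 0.00698); A730060N03Rik lies on the opposite strand with 0.292 times its reads. Ly6h, a membrane-anchored protein that binds nicotinic receptors, fell by 0.36 ± 0.08 (SE; limma, adjusted p = 0.00426) and by 0.31 after GC correction (adjusted p = 0.0151). The postsynaptic scaffold Dlgap3 (-0.36 ± 0.07 SE, limma adjusted p = 0.00172) and the adhesion protein of inhibitory synapses Nlgn2 (-0.28 ± 0.06 SE, limma adjusted p = 0.00282) fell, and Dlg2, a scaffold of NMDA receptors, rose (0.28 ± 0.06 SE, limma adjusted p = 0.00478). These did not pass after GC correction, at -0.02, -0.04 and 0.14. The chloride importer Slc12a2 differed by -0.06 and the exporter Slc12a5 by -0.54, and neither passed (limma adjusted p = 0.651 and 0.311).

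**Figure D5:**
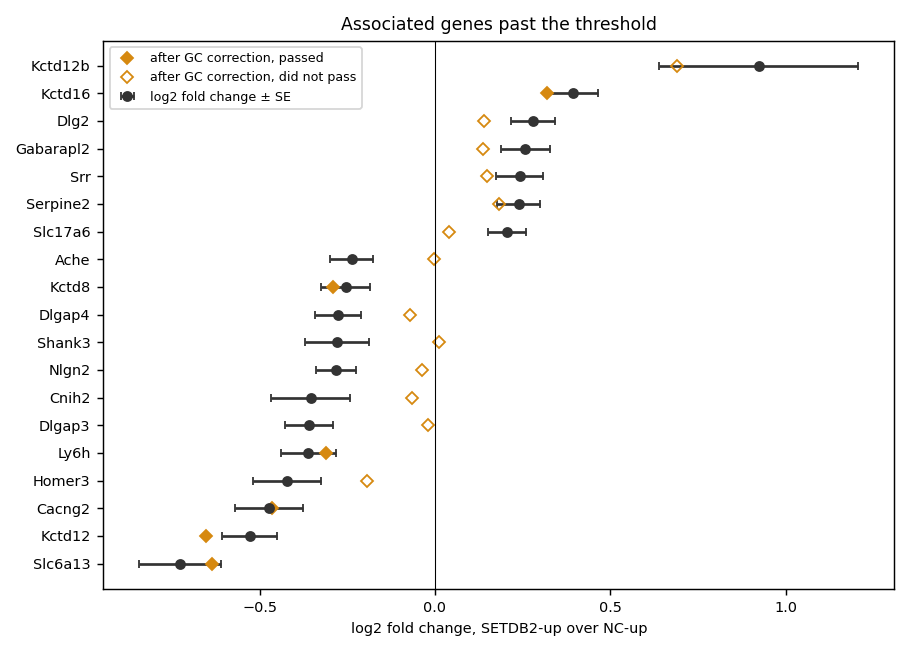
log2 fold change ± SE (SETDB2-up over NC-up, circles) of the 19 associated genes that passed the threshold, with the GC-corrected value as a diamond, filled where it passed. The filled diamonds are Kctd16 above 0 and Kctd8, Ly6h, Cacng2, Kctd12 and Slc6a13 below 0.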

How the data were processed

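Per the labels' protocols, tissue RNA isolated with TRIzol was selected on poly-T beads, and strand-specific libraries were read as pairs of 150 bp. FastQC, HISAT2 and GRCm38 were used, per the submitters' processing notes; the sources used here name neither the read counter nor its strand setting. The deposited values are a signal per gene: read counts that the authors divided by 1 factor per library. Every value was a whole multiple of that factor (100% whole, tolerance 0.001 read), and edgeR and DESeq2 were run on these recovered reads as alternatives. Within groups, counts of library pairs differed by more than sampling noise (chi-square over degrees of freedom, 3.97 to 9.93). Recovered totals of 19334997 to 23501386 reads make 3 reads equal to 0.128 to 0.155 CPM.

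The main test was limma 3.58.1 (R 4.3.3) with a mean-variance trend on log2(value + 1), which understates the change of low genes, over the 16387 genes reaching a value of 1 in 3 or more libraries, with Benjamini-Hochberg adjustment. It replaced a count test because the table is normalised. Transcript length and GC content are those of the longest coding GENCODE M21 transcript, matched for 94.7% of genes and for all 49 receptor genes. The GC correction removed a loess trend (span 0.3) of each library's deviation from the gene mean. Alternatives were edgeR 4.0.16 (TMM and RLE factors), DESeq2 1.42.0, a pseudocount of 0.1, no filter, the replicate number as a block, and leaving out libraries. limma with and without the GC correction, edgeR and DESeq2 were tested on simulated data. Values per library are given for every receptor gene past the threshold, for the highest gene per kilobase in each family, and for the 3 largest fold changes that did not pass, and for some further genes chosen after their values were seen; of the associated genes, the 8 smallest adjusted p are named with the remaining GABA-B subunits. Some receptor genes are counted but not reported here by name. The members, lists and GC correction were chosen with earlier results of these data known.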

Additional observations from a re-analysis of the deposited data

How the results depend on the processing

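The 8 receptor genes that rose and the 2 that fell were the same genes with a pseudocount of 0.1, without a filter and in edgeR with TMM or RLE factors; DESeq2 and the replicate block gave the same 8 rises. The GC correction left 277 rises and 553 falls over all genes, 0 and 0 among receptor genes, and 1 and 6 among associated genes. Leaving out SETDB2-up libraries 1 and 2 together left 185 and 355 over all genes, 3 and 0 among receptor genes, and 1 and 4 among associated genes; fewer libraries were then tested. Leaving out 1 library at a time gave 417 to 1526 rises and 676 to 1807 falls over all genes, 6 to 11 and 1 to 3 among receptor genes, and 3 to 9 and 6 to 13 among associated genes. Over all genes, counts moved by more than 1.5 times without SETDB2-up library 1 (417 rises, 676 falls), SETDB2-up library 2 (654, 919) or NC-up library 2 (745, 866).

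The labels do not say whether libraries of equal number are paired. Deviations from the group means correlated at 0.0359 to 0.0484 between equal numbers and at -0.0347 to -0.00557 between unequal ones. Each library correlated best with its own number, and what equal numbers share was not tested. With the replicate number as a block, 4 receptor genes fell, Grin1 and Grm4 added. A block together with the GC correction, an alternative chosen after seeing the data, left 717 rises and 955 falls over all genes, 2 and 0 among receptor genes (Gabrb2 and Chrna6 rose), and 4 and 9 among associated genes. Signs turned for Grin1 (0.0612) and Grm4 (0.0877) under the GC correction with and without the block, and for Grid1 without SETDB2-up libraries 1 and 2 (0.0157); leaving out 1 library at a time, Grid1 ranged from -0.140 to 0.00537, reaching that upper value without NC-up library 1. The causes were not tested. Among the receptor genes named by rule, the other alternatives kept the sign of the main value. Among associated genes, rises numbered 3 without SETDB2-up library 1 or NC-up library 2, and falls 6 without SETDB2-up library 1. The single fall that remained among receptor genes without SETDB2-up library 1 or 2, or NC-up library 1, 2 or 3, was Grik5. Depth limits genes with few reads, such as Gabrg3 and Grm5, the most.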
